A study of Mus musculus with 6 samples.

Results

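Acetylation of histone H3 at lysine 27 (H3K27ac) was followed across 9 genes of DNA methylation that are tied to clonal blood growth, taken from the 21883 protein-coding genes of the RefSeq annotation on mouse chromosomes 1 to 19, X and Y. The 9 genes were listed by name (Dnmt1, Dnmt3a, Dnmt3b, Tet1, Tet2, Tet3, Asxl1, Idh1 and Idh2), and all 9 were found. Every called peak that overlapped a gene's span with 10 kb added on each side (GRCm38/mm10) was taken. The study profiled H3K27ac by CUT&RUN, in which an antibody guides a nuclease to the mark and the released DNA is sequenced, in primary hematopoietic stem cells from bone marrow. Its question was where the mark changes without Ppp2ca, the gene of a catalytic subunit of protein phosphatase 2A. There were 3 libraries from Ppp2ca-deficient mice (knockout, KO) and 3 from mice with wild-type Ppp2ca (WT), each made from 100000 cells. With 3 mice of each genotype in the series text, each library was taken as 1 mouse. The sources used here do not give the strain, the age, the driver of the deletion or the part of Ppp2ca that was removed.

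DNA methylation is written by the DNMT3 enzymes, which methylate new sites, and copied after replication by DNMT1. TET enzymes oxidise methylated cytosine, the first step of its removal, and need alpha-ketoglutarate, which the isocitrate dehydrogenases IDH1 (cytosol) and IDH2 (mitochondria) make. ASXL1 is a partner of the histone deubiquitinase BAP1. In people, mutations of DNMT3A, TET2 and ASXL1 are the ones most often found in expanded blood stem cell clones. H3K27ac marks active promoters and enhancers.

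The starts of these genes carry much of what the peaks show, so 8 of their 14 annotated starts are printed first. Each sequence is the RefSeq promoter window of 300 bp (GRCm38.p6), from 250 bp before the start to 50 bp after it, with CpG dinucleotides, the sites of DNA methylation, in capitals. Starts of a gene are numbered in the direction of transcription. The pair from Idh1 is shown because the outer start had peaks in KO libraries alone and the inner start had peaks in all 6 (chr1:65186430-65186729 and chr1:65179093-65179392, minus strand).
Idh1 start 1: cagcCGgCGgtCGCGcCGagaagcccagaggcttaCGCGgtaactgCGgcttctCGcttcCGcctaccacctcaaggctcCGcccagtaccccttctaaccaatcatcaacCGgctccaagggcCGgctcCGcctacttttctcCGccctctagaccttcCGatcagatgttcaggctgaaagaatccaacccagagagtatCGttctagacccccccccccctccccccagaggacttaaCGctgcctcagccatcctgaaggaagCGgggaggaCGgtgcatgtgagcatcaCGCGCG
Idh1 start 2: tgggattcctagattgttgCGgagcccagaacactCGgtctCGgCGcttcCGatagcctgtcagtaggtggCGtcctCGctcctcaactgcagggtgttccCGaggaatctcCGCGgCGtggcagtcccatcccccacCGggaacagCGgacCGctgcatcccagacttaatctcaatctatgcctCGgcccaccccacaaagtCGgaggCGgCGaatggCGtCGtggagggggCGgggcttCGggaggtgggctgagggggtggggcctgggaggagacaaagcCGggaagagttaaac

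For the maintenance enzyme Dnmt1 and the de novo enzyme Dnmt3a, an outer start had no peak within 1 kb in any library and an inner one had a peak in all 6. Dnmt1 lies on the minus strand (chr9:20959839-20960138 and chr9:20952574-20952873) and Dnmt3a on the plus strand (chr12:3806730-3807029 and chr12:3891494-3891793).
Dnmt1 start 1: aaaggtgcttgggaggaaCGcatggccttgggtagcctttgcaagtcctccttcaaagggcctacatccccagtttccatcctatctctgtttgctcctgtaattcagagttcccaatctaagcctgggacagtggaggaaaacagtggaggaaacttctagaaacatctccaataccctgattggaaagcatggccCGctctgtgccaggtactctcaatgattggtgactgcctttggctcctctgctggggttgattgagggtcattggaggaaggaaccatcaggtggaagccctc
Dnmt1 start 3: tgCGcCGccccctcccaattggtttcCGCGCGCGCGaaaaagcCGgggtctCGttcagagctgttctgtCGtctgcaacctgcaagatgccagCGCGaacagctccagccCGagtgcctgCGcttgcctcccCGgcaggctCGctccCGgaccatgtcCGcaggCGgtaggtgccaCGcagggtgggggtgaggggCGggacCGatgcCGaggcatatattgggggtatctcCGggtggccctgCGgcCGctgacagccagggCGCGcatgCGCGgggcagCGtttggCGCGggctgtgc
Dnmt3a start 1: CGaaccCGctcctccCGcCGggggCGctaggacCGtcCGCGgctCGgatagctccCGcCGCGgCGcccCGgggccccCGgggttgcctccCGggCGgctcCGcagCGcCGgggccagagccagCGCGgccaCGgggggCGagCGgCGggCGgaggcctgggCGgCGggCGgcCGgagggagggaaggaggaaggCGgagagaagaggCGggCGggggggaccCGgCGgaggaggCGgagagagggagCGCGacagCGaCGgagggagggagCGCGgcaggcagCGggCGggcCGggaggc
Dnmt3a start 3: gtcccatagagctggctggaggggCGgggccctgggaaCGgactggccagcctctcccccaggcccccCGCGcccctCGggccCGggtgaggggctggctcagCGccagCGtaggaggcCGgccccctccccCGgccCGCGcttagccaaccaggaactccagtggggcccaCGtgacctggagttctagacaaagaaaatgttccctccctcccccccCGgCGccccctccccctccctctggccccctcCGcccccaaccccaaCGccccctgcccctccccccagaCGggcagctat

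Dnmt3b, the other de novo enzyme, is shown as a CpG-rich start with a peak in 1 library only (chr2:153649199-153649498, plus strand). Tet2 is shown as the start with the most CpG sites (chr3:133544341-133544640, minus strand).
Dnmt3b start: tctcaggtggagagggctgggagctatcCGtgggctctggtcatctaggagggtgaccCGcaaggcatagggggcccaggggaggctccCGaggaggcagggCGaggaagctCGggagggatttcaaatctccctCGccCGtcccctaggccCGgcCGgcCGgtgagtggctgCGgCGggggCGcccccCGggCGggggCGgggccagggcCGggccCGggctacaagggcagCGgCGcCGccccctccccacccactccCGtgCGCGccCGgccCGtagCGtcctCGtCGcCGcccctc
Tet2 start: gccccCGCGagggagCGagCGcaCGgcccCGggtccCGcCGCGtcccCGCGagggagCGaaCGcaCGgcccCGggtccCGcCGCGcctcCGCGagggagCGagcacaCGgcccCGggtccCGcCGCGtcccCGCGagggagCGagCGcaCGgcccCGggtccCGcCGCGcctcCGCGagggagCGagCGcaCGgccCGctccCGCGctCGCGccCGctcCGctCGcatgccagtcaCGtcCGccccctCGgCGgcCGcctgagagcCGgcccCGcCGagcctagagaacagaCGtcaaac

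CpG content did not separate marked from unmarked starts among these genes. The 5 starts with a peak in all 6 libraries held 12 to 57 CpG sites (median 23), and the 3 starts without a peak in any library held 2 to 47 (median 46), against a median of 13 over the windows of 21262 starts. The windows of the unmarked Dnmt3a starts 1 and 2 overlap (46 and 47 CpG sites), so these 3 starts are not independent. The Tet2 window held 57, more than or as many as 99.9% of all windows, and one 12-base word occurred 5 times in it, as many copies as are reached in 2.46% of windows. Dnmt3a start 1 held 46 CpG sites and start 3 held 18, so the marked start was the poorer one, whereas Dnmt1 start 3 held 33 and the unmarked start 1 held 2. The letters GGGCGG (GC box, either strand) occurred in 12 of the 14 windows and in 46.2% of all, CCAAT (either strand) in 5 of 14 and 38.2%, and TATAAA (either strand) in 0 of 14 and 12.6%. These are descriptions of short windows and do not show that a factor binds.

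The lists differ in length between the genotypes, and every result on the 9 genes is read against that. They held 50453, 34016 and 35629 peaks in KO replicates 1 to 3 and 22066, 29945 and 21917 in WT replicates 1 to 3, covering 18.9 ± 4.12 Mb and 8.04 ± 1.35 Mb (SD, n = 3 each; ratio 2.36). Read totals are not in the lists; the commonest background that the peak values imply, a proxy for depth, was 0.738, 0.465 and 0.827 fragments per 200 bp in the KO libraries and 0.499, 0.584 and 0.498 in the WT libraries. Ppp2ca had a gene-end peak in all 6 libraries, 1566 to 1681 bp wide in KO and 786 to 1232 bp in WT, which does not check the genotype because the deleted part is not given. Of 15 stem cell markers 3.67 ± 1.15 were marked in each genotype (SD, n = 3). The 15 include Cd48, a marker listed for being low in stem cells. Cd48 had a gene-end peak in every KO library and in WT replicates 2 and 3, and the means are equal only with it counted. Tal1 had a gene-end peak in all 6 libraries, and Ly6a, Slamf1, Cd34, Hlf, Mecom, Gata2 and Hoxb5 were among those without one in any library. Gene ends leave out peaks elsewhere in a gene or its flanks. With these counted, Ly6a and Mecom had peaks in all 6 libraries. Slamf1, Cd34, Hlf, Gata2 and Hoxb5 had them in some libraries and not in others. All 5 markers of T and NK cells lacked a gene-end peak everywhere, whereas Klf1 (erythroid), Csf1r (myeloid), Gp1ba and Itga2b (megakaryocyte) and Pecam1 (endothelium) had one in all 6. Of 7 erythroid markers 4.33 were marked in KO and 3.33 in WT, and of 7 myeloid markers 3.33 in KO and 2.33 in WT. Of 5 B lymphoid markers 1 was marked on average in each genotype, of 4 megakaryocyte markers 2 in KO and 2.33 in WT, and of 5 endothelial and stromal markers 2 in KO and 1 in WT; the part of other cell types in the results was not tested. In a bulk profile, fewer cells with the mark and less mark per cell cannot be told apart.

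The 9 genes and their flanks held 198 peaks. There were 45, 38 and 46 peaks in KO replicates 1 to 3 and 20, 27 and 22 in WT replicates 1 to 3. Every KO library held more than every WT library, as was so for the whole lists. The ratio of mean peak numbers was 1.87 at the 9 genes and 1.62 over the whole lists. By place, 7 ± 1 peaks lay within 1 kb of a gene end in KO against 2.67 ± 0.577 in WT, 30.7 ± 3.06 against 18 ± 3.46 elsewhere in a gene, and 5.33 ± 2.08 against 2.33 ± 1.53 in the flanks (SD, n = 3 each). Peaks were not counted by place over the whole lists, so these counts have no background. The peaks were small, since 35 of 129 KO peaks and 24 of 69 WT peaks had the least width of 200 bp. The median fold over background, the authors' value at the summit, averaged 3.16 over the KO libraries and 3.23 over the WT libraries. A q-value of at most 0.05 was reached by 21, 13 and 25 peaks in KO replicates 1 to 3, against 3, 5 and 2 in WT. These are 46.7%, 34.2% and 54.3% of the KO peaks and 15%, 18.5% and 9.09% of the WT peaks at the 9 genes, beside 43.9%, 47.4% and 66.6% in KO and 16.6%, 15.7% and 16.7% in WT over the whole lists. Merging peaks across libraries gave 107 regions, of which 77.6% were seen in 1 library only, beside 73.5% of all regions.

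Called bases, the sequence covered by peaks within a gene's span and flanks, were higher in every KO than in every WT library at 4 of the 9 genes: Dnmt1, Dnmt3a, Asxl1 and Idh1. Over all protein-coding genes 41.8% met the same rule (53.7% of those with a called base in any library) and 0.37% the opposite one, so 4 of 9 and 0 of 9 are near the background. Among peaks with a q-value of 0.05 or less, 5 of 9 genes met it, with Idh2 added, beside 42.2% of all genes, and with the same number of peaks per library 2 of 9, Dnmt1 and Asxl1, beside 31.7%. Over the 9 spans together 18118 ± 3017 bp were covered in KO and 8055 ± 1998 bp in WT (SD, n = 3 each), a ratio of 2.25 beside 2.36 for the whole lists. The median ratio was 2.21 over the 8 genes with a WT called base and 2.36 over the 15128 such genes of the genome. As a share of each library's called bases the 9 spans took 859, 1008 and 1031 bp per called Mb in KO and 930, 1079 and 972 bp per called Mb in WT. The groups overlapped on that scale at all 9 genes, whereas over all genes 10.2% were higher in every KO library and 4.26% lower. No gene of the 21883 passed the two-sided exact permutation test over libraries, with 0 at an adjusted or unadjusted p below 0.05. With 3 against 3 libraries, p cannot go below 0.1. Each p is the share of the 20 assignments of libraries to genotypes that give a mean difference at least as large.

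**Figure D1:**
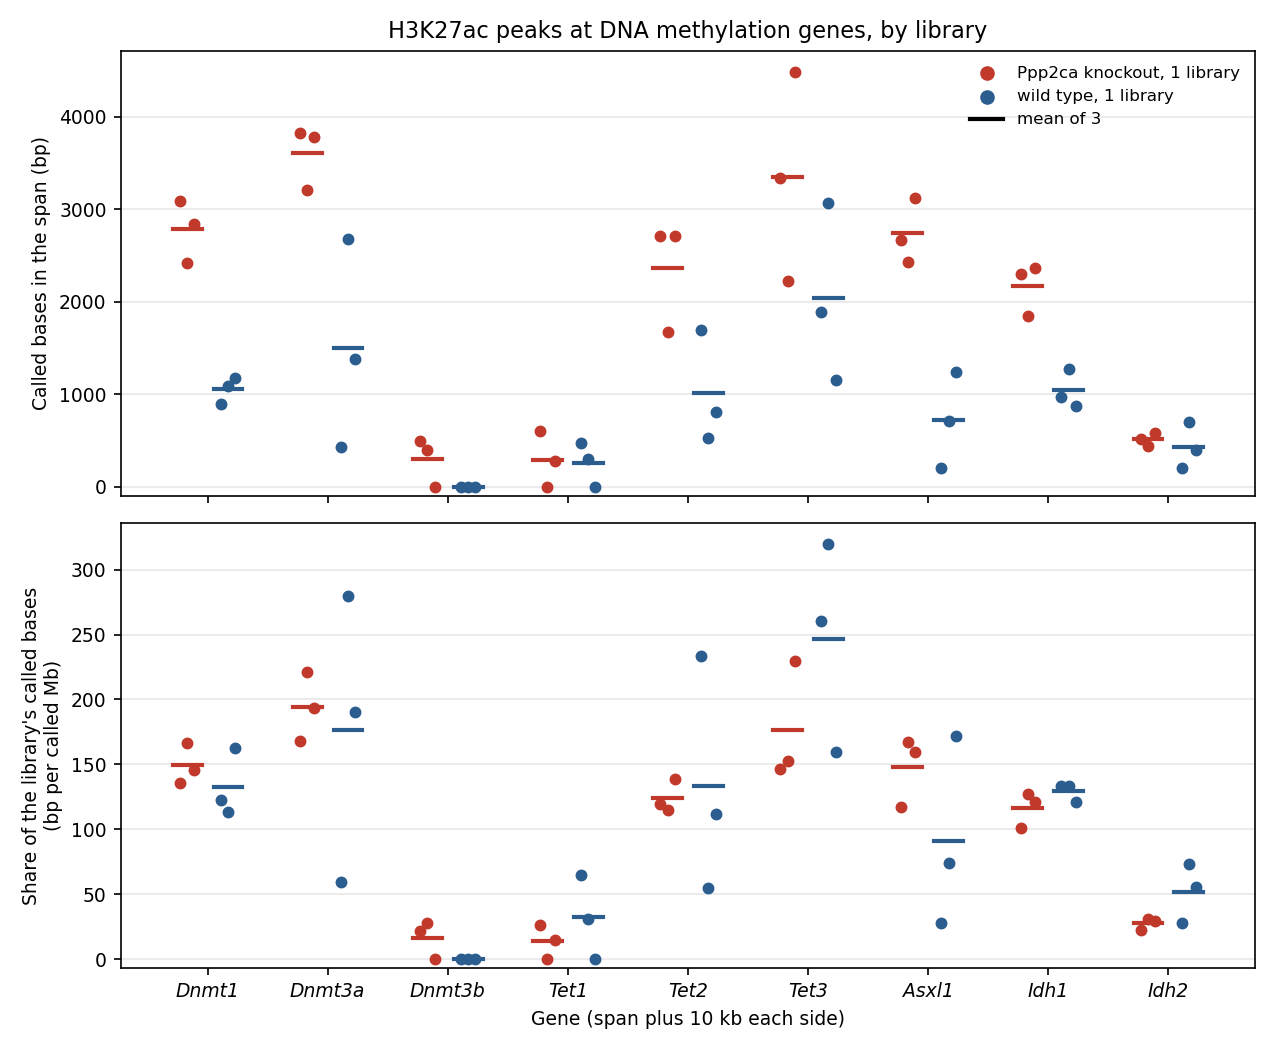
Called bases in each gene's span with 10 kb flanks (upper panel, bp) and the same as a share of all called bases of the library (lower panel, bp per called Mb); each point is 1 library, KO left and WT right, and bars are means of 3. The groups do not overlap at Dnmt1, Dnmt3a, Asxl1 and Idh1 in bp and overlap at all 9 genes as a share.

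Dnmt1 (chromosome 9, 20907206 to 20959888, minus strand) had 3088, 2417 and 2846 called bases in KO replicates 1 to 3 and 894, 1088 and 1178 in WT replicates 1 to 3. The groups did not overlap, and the mean was 2.64 times higher in KO (exact permutation p = 0.1; adjusted over all genes, p = 0.237). Starts 2 and 3 share 1 merged region (20951317 to 20953080). That region was covered for 1509, 1100 and 1507 bp in KO and 686, 715 and 200 bp in WT. Its best peak rested on 25, 21 and 20 fragments at the summit in KO and on 6, 7 and 6 in WT. The caller's local background at those summits was 3.48, 2.46 and 4.30 fragments in KO and 0.780, 1.08 and 1.10 in WT, so the fold (5.80, 6.36 and 3.96 in KO; 3.93, 3.85 and 3.33 in WT) differs less than the fragments do. A q-value of at most 0.05 was met at these starts in 3 KO and 0 WT libraries. The outer start 1 (20959888) had no peak within 1 kb in any library.

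Peaks also lay in the flanks of Dnmt1. A region 6740 bp upstream of start 1 (20966628 to 20967617) had peaks in 3 KO and 2 WT libraries and lies at an end of S1pr2, a sphingosine phosphate receptor gene. On the other side 4 libraries, all 3 KO and WT replicate 3, had a peak at an end of Eif3g, a translation initiation factor gene. These peaks are counted in the Dnmt1 span but cannot be assigned to Dnmt1. The mean KO minus WT difference at Dnmt1 was 1730 bp with the flanks and 844 bp without any flank. The groups did not overlap in either case.

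Dnmt3a (chromosome 12, 3801559 to 3914443, plus strand) had 3823, 3213 and 3778 called bases in KO and 432, 2684 and 1380 in WT. The groups did not overlap, but WT replicate 2 stood well above the other WT libraries (SD 1131 bp in WT), and the ratio of means was 2.41 (exact permutation p = 0.1; adjusted p = 0.237). Without WT replicate 2 the ratio was 3.98. Every Dnmt3a peak lay inside the gene, away from its ends. Starts 1 and 2 (3806980 and 3807160) had no peak within 1 kb in any library. Start 3 (3891744), inside the gene, had peaks in all 6, with 1010, 1002 and 1254 bp of its window of 1 kb each side covered in KO and 232, 959 and 201 bp in WT. The summits held 10, 9 and 9 fragments in KO and 4, 7 and 5 in WT. Their folds, 3.85, 5 and 3.38 in KO and 3.16, 4.49 and 3.53 in WT, overlapped.

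Between starts 2 and 3, and over 1 kb from start 3, Dnmt3a had 11 regions, 8 of them in 1 library and 3 in more than 1. A region at 3834354 to 3835210, 27194 bp downstream of start 2, had peaks in 3 KO and 2 WT libraries. A region at 3855402 to 3857010, 34734 bp upstream of start 3, was covered for 814, 1415 and 1190 bp in KO and for 0, 1238 and 0 bp in WT. There WT replicate 2 lay within the KO range and the other WT libraries had no peak. Another region, at 3870949 to 3871951, had peaks in KO replicates 1 and 2 and WT replicate 3.

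Dnmt3b (chromosome 2, 153649411 to 153687730, plus strand) was nearly free of called peaks. It had 491, 402 and 0 called bases in KO and 0 in each WT library (exact permutation p = 0.4; adjusted p = 0.680). The 3 peaks behind these values lay in 3 different places, and the 1 at the start, in KO replicate 1, rested on 5 fragments.

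Tet1 (chromosome 10, 62804570 to 62887469, minus strand) was also nearly free of peaks, with 600, 0 and 283 called bases in KO and 473, 299 and 0 in WT (exact permutation p = 1). Its 7 peaks fell in 7 separate regions, each in a single library. The only peak within 1 kb of its start was in WT replicate 2, with 3 fragments at the summit.

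Tet2 (chromosome 3, 133463677 to 133545136, minus strand) had 2710, 1675 and 2710 called bases in KO and 1700, 523 and 808 in WT. KO replicate 2 lay just under WT replicate 1, so the groups overlapped (ratio 2.34, exact permutation p = 0.2; adjusted p = 0.406). Without WT replicate 1 the ratio was 3.55. Around its start the groups did not overlap, with 1032, 856 and 1050 bp covered in KO and 785, 522 and 8 bp in WT. Summits there held 26, 13 and 24 fragments in KO and 11, 10 and 7 in WT. Local background at them was 4.92, 3.04 and 5.98 fragments in KO and 1.42, 1.5 and 1.34 in WT. The folds, 4.56, 3.47 and 3.58 in KO and 4.96, 4.4 and 3.42 in WT, overlapped. The peak of WT replicate 3 has its summit 1245 bp downstream of the start and enters the window by 8 bp. Ranked within its own list the start peak stood at the best 5.11%, 26.7% and 17.3% in KO and 4.17%, 7.05% and 39.4% in WT, a description within each list. Of 20 regions at Tet2, 17 were seen in 1 library only, beside the 73.5% over all regions.

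Tet3 (chromosome 6, 83362373 to 83457208, minus strand) had 3334, 2223 and 4490 called bases in KO and 1895, 3069 and 1153 in WT, so the groups overlapped (ratio 1.64, exact permutation p = 0.2; adjusted p = 0.406). It was the only one of the 9 genes with a gene-end peak in all 6 libraries; over all genes 17% had one. No gene of the 9 had one in all 3 WT and no KO libraries, as 0.00914% of all genes did. That peak lies at the high-coordinate end of the span (region 83456392 to 83457142), 14714 bp upstream of the start in the promoter table, which itself had a peak in KO replicate 1 alone. A second region in all 6 libraries lies 59088 bp downstream of that start (83381439 to 83382590). It was covered for 921, 992 and 922 bp in KO and 616, 536 and 318 bp in WT. Its peak in KO replicate 3 had a fold of 7.58 and stood at the best 1.78% of that list, against folds of 4.65 and 4.10 in KO replicates 1 and 2 and 4.59, 4.12 and 3.70 in WT.

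**Figure D2:**
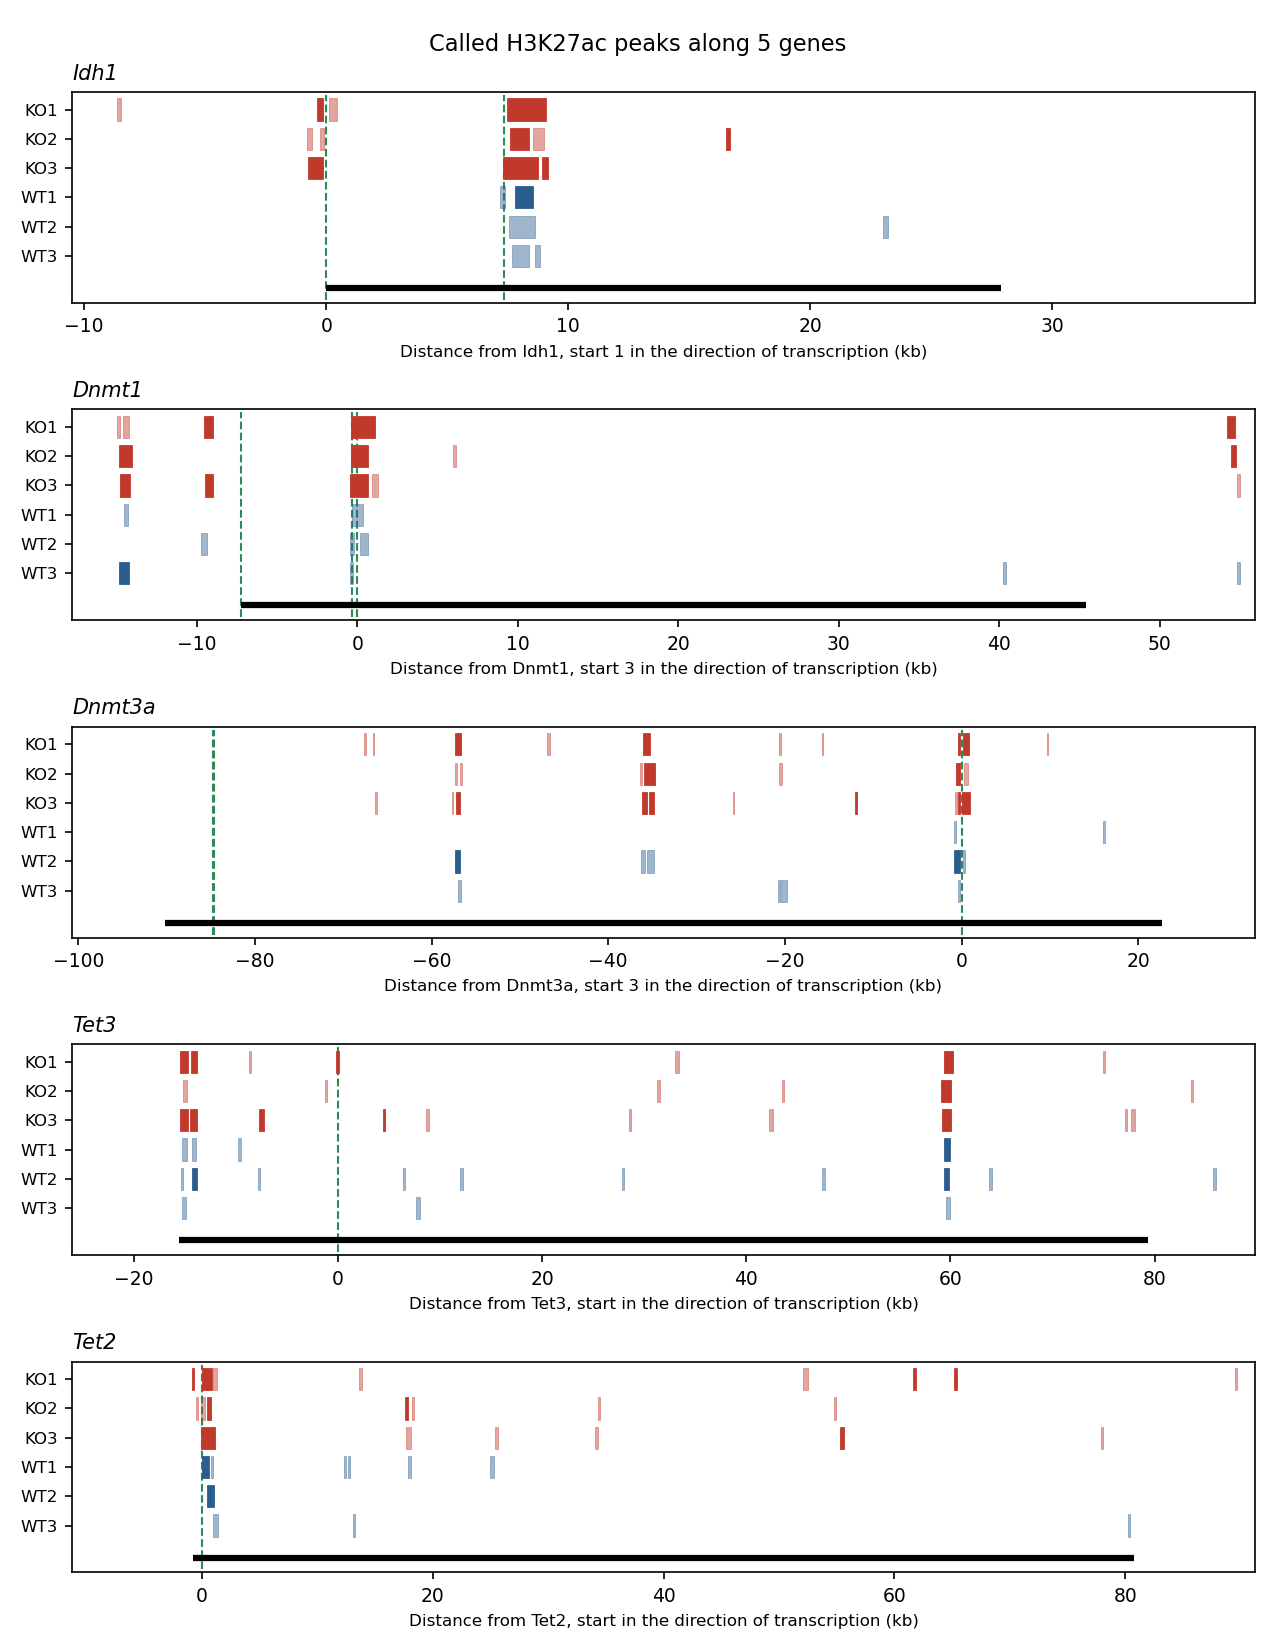
Peaks of each library along Idh1, Dnmt1, Dnmt3a, Tet3 and Tet2, plotted by distance from a start in the direction of transcription (kb); rows are libraries with KO above WT, full colour marks a q-value of at most 0.05, the black bar is the RefSeq gene span and dashed lines are annotated starts. Peaks stand at inner starts of Dnmt1 and Dnmt3a in all 6 libraries, none stands within 1 kb of their outer starts, and the outer start of Idh1 has peaks in the 3 KO libraries only.

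Asxl1 (chromosome 2, 153345830 to 153404007, plus strand) had 2664, 2433 and 3125 called bases in KO and 200, 711 and 1245 in WT. The groups did not overlap (ratio 3.81, exact permutation p = 0.1; adjusted p = 0.237), and without WT replicate 3 the ratio was 6.02. Its start was covered for 1344, 426 and 847 bp in KO and 200, 200 and 0 bp in WT. Summits held 27, 18 and 36 fragments in KO and 8 and 9 in WT replicates 1 and 2, and the 36 in KO replicate 3 were the most at any peak of the 9 genes. Local background at these summits was 7.94, 3.98 and 8.04 fragments in KO and 1.84 and 2.42 in WT replicates 1 and 2. The folds, 3.13, 3.82 and 4.09 in KO and 3.17 and 2.92 in WT, overlapped. WT replicate 3 lacked a peak there but had one at 153347004 to 153347430, just outside the 1 kb window, with 11 fragments and a q-value under 0.05. The region around it (153346684 to 153347523) had peaks in 3 KO libraries and in no other WT library. A region 4791 bp downstream of the start (153350621 to 153351737) had peaks in 3 KO and 2 WT libraries.

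Idh1 (chromosome 1, 65158616 to 65186479, minus strand) had 2300, 1846 and 2361 called bases in KO and 972, 1277 and 878 in WT. The groups did not overlap (ratio 2.08, exact permutation p = 0.1; adjusted p = 0.237). Its inner start 2 (65179142) was marked in all 6 libraries. Within 1 kb of it 855, 739 and 1053 bp were covered in KO and 785, 800 and 654 bp in WT, so the groups overlapped in that window (exact permutation p = 0.3). The whole merged region there (65177318 to 65179308) was covered for 1577, 1246 and 1718 bp in KO and 972, 1077 and 878 bp in WT, without overlap. Its best folds, 4.09, 5.03 and 3.93 in KO and 4.81, 3.60 and 2.81 in WT, overlapped. The outer start 1 (65186479) was covered for 523, 400 and 643 bp in KO and for 0 bp in each WT library. Idh1 was the only one of the 9 genes with a gene-end peak in all 3 KO and no WT libraries, as 4.1% of all genes had, and start 1 the only one of 14 starts, as 4.25% of all starts were. Its region (65186556 to 65187277) was the only one of 107 regions at the 9 genes with peaks in 3 KO and no WT libraries, beside 2.7% of all regions. Regions with peaks in all 6 libraries numbered 6 of the 107, beside 5.27% of all regions.

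The peaks at Idh1 start 1 were weaker than those at start 2. Their summits held 8, 4 and 8 fragments in KO, against 18, 14 and 17 at start 2 in the same libraries. In KO replicate 2 the best peak stood at 77.3% of its list and reached no q-value of 0.05, and 2 peaks of 200 bp made up its covered bases. With the same number of peaks per library the KO replicate 2 peaks are lost, while the best peaks of KO replicates 1 and 3 stay. None of the 9 genes then meets the gene-end rule, beside 2.91% of all genes. With a q-value of at most 0.05 the gene that meets it is Asxl1, beside 12.4% of all genes. The region overlaps an end of Pikfyve, a phosphoinositide kinase gene that reaches the outer start, so the mark cannot be assigned to either gene.

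Idh2 (chromosome 7, 80094845 to 80118608, minus strand) had 515, 446 and 581 called bases in KO and 200, 705 and 400 in WT (exact permutation p = 0.7; adjusted p = 1). WT replicate 2 was the highest of the 6. Peaks within 1 kb of its start (80115350) occurred in 3 KO libraries, with 9, 6 and 10 fragments at the summit, and in WT replicate 2, with 4. With a q-value of at most 0.05 the start had a peak in 3 KO and 0 WT libraries.

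Over the 14 starts, 5 had a peak in all 6 libraries (starts 2 and 3 of Dnmt1, start 3 of Dnmt3a, Tet2 and Idh1 start 2), beside 17.9% of all annotated starts. Called bases around the start were higher in every KO than in every WT library at 6 starts (both inner Dnmt1 starts, Dnmt3a start 3, Tet2, Asxl1 and Idh1 start 1), beside 26.7% of all starts; each had an exact permutation p of 0.1 and an adjusted p of 0.375. None was lower in every KO library (0.0235% of all starts), and none had peaks in all 3 WT and no KO libraries (0.00941%). The pair of inner Dnmt1 starts lie in 1 region and are not independent. With a q-value of at most 0.05 the starts with peaks in 3 KO and no WT libraries were both inner Dnmt1 starts, Asxl1 and Idh2, 4 of 14, beside 12.8% of all starts. At that threshold WT libraries kept a peak at Tet2 (2 libraries), Dnmt3a start 3 (1) and Idh1 start 2 (1), and no start had one in all 6, beside 4.74% of all starts.

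**Figure D3:**
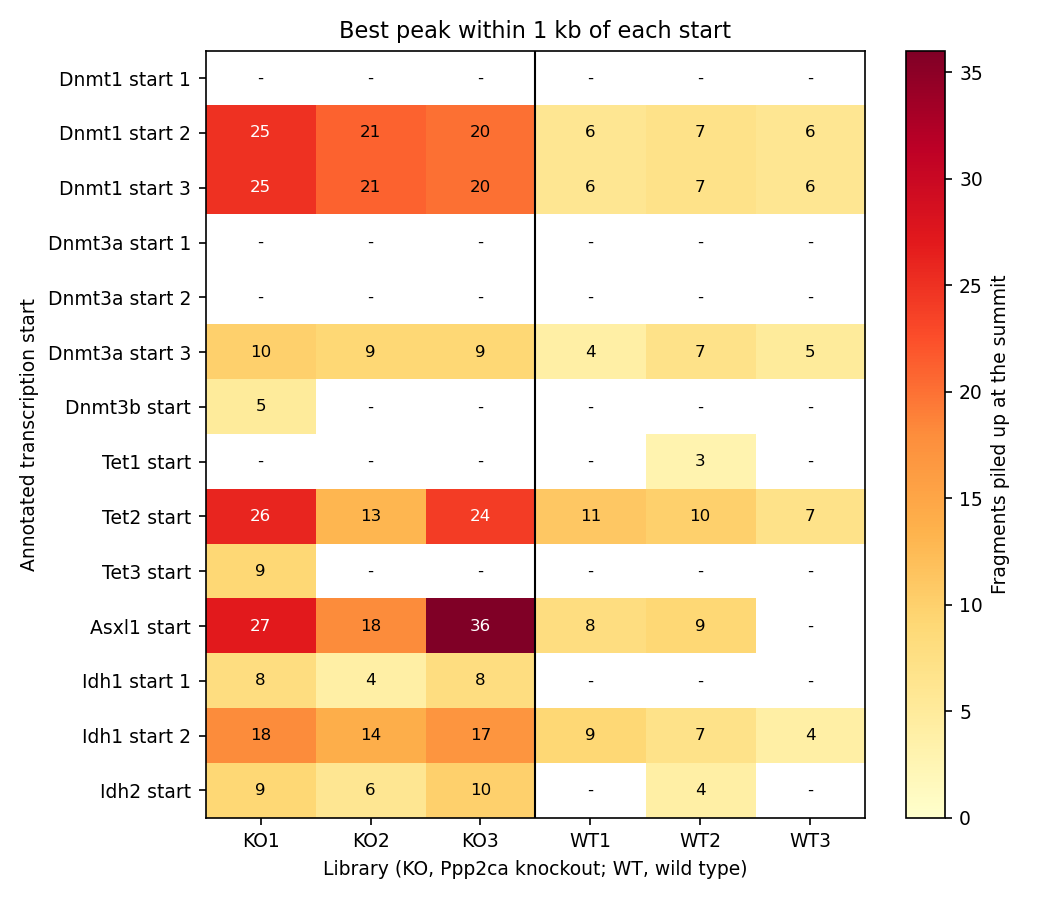
Fragments at the summit of the best peak within 1 kb of each annotated start (rows) in each library (columns, KO left of WT); a dash means no peak. Values run from 4 to 36 in KO libraries and from 3 to 11 in WT libraries. They are not corrected for local background, which differs between libraries.

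Gene ends alone give a different picture from annotated starts. Within 1 kb of either end of the span, 5, 4 and 4 of the 9 genes had a peak in KO replicates 1 to 3 and 3, 3 and 2 in WT, and Dnmt1, Dnmt3a and Idh2 had none in any library. RefSeq spans of these 3 genes run past their marked starts, so that the mark is counted as lying in the gene body. By annotated starts, Dnmt1, Dnmt3a, Tet2 and Idh1 each had a marked start in all 6 libraries.

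Other genes of the pathway were followed in 3 lists. Of 20 cofactors and removal factors of DNA methylation, 15.3 ± 0.577 had a gene-end peak in KO and 10.7 ± 0.577 in WT (SD, n = 3 each), and 2 had one in all 3 KO and no WT libraries (4.1% of all genes): Zbtb33, the methyl-CpG binding protein Kaiso, and Gadd45a, a stress gene linked to demethylation. Mbd3, a NuRD subunit, and the repair enzymes Apex1 and Tdg, the glycosylase that removes oxidised methylcytosine, were among 8 marked in all 6 (17% of all genes). Called bases were higher in every KO library at 14 of these 20 genes and lower at 0.

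Of 20 genes that make or use the pathway's metabolites, 17.3 ± 2.08 were marked at a gene end in KO and 12.3 ± 2.08 in WT (SD, n = 3 each), with none in KO alone. Mat2a and Mat2b, subunits of the enzyme that makes the methyl donor S-adenosylmethionine, and Ogdh, which consumes alpha-ketoglutarate, were among 7 marked in all 6, and called bases were higher in every KO library at 10 genes and lower at 0. Of 30 other genes of clonal blood growth, 24.7 ± 1.15 were marked in KO and 19.7 ± 2.52 in WT (SD, n = 3 each). The Ras inhibitor gene Nf1 was the only one marked in KO alone, and the cohesin gene Smc3 and the splicing genes Sf3b1 and U2af1 were among 14 marked in all 6. Called bases were higher in every KO library at 24 of the 30 and lower at 0. Over all genes 4.1% were marked at a gene end in KO alone, 17% in all 6, and 41.8% had more called bases in every KO library; no gene had an adjusted p under 0.05.

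**Figure D4:**
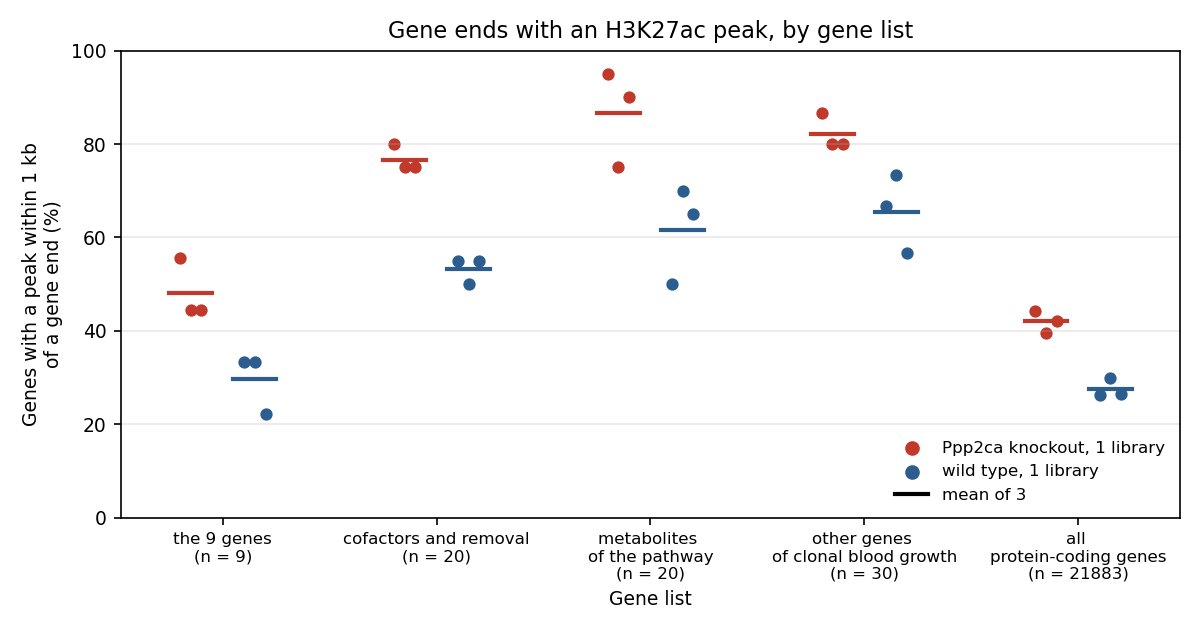
Percentage of genes with a peak within 1 kb of a gene end, in each library, for the 9 genes, 3 lists of related genes and all protein-coding genes; points are libraries, KO left of WT, and bars are means of 3. The 9 genes lie at 44.4% to 55.6% in KO and 22.2% to 33.3% in WT, and all genes at 39.6% to 44.3% in KO and 26.3% to 29.9% in WT.

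The gene whose called bases were most like those of each of the 9, by the smallest Euclidean distance of log10(bases + 1) over the 6 libraries, was Cstf3 for Idh1 (distance 0.0595), Nt5c3 for Dnmt1 (0.0982), Topors for Tet2 (0.124), Qk for Asxl1 (0.133), Med13l for Tet3 (0.144) and Nek1 for Dnmt3a (0.199). Cstf3 had 2378, 1999 and 2420 called bases in KO and 1024, 1217 and 947 in WT. For Dnmt3b, Tet1 and Idh2, with few called bases, the nearest were Tmem30c (0.0225), Slc4a10 (0.235) and Ear10 (0.271).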

How the data were processed

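H3K27ac CUT&RUN was analysed from 1 narrowPeak list per library, GRCm38/mm10, with Trimmomatic, BWA, MACS2, deepTools, HOMER and ChIPseeker named in the submitters' processing notes; the sources used here give no versions or settings and name no control library. In the deposited narrowPeak layout each peak has a ratio (fold over background at its summit), a −log10 p-value, a −log10 q-value and the summit position. The deposited score is about 10 times the −log10 p-value. Peak names number 1 list per library, so the authors did not pool replicates. These values depend on depth. Folds, fragments and q-value counts are set side by side between lists as descriptions, and the permutation tests reported here used called bases.

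Gene spans and starts came from RefSeq tables (GRCm38.p6; all 9 genes matched by symbol, 14 starts). Exon structure was not used here. A peak counted with 1 bp of overlap. Places were a gene end (within 1000 bp), the body, and the 10 kb flanks. Regions are peaks of all 6 libraries merged where they overlap. Summit fragments and local background were solved from fold and p-value (Poisson), as a whole number within a tolerance of 0.002. Values for whole libraries used peaks with −log10 p-value under 15. The 1 peak of the 9 genes above that limit, at Tet3 in KO replicate 3, gave 29 fragments. Called bases were compared by a two-sided exact permutation test over 20 assignments, for all genes or starts, with Benjamini-Hochberg adjustment. The code was run on simulated lists with peaks placed at random and peaks planted at gene ends in the KO lists alone. The planted peaks lay inside the counted window, so that run checks the code and not the results. Python 3.11.15, numpy 2.4.6, pandas 2.3.3 and scipy 1.17.1 were used.

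The 9 genes, related lists and tests were chosen with earlier results of these data known. Named genes are all 9, at most 4 genes per list marked in KO alone and 3 marked in all 6, by rank in the weakest KO library, and the 1 gene most like each of the 9; cell type markers and genes that share a window with one of the 9 are also named. Alternatives were q-value thresholds, equal numbers of peaks, other flanks and windows, summit position, shares of called bases, starts alone, leaving out single libraries and a replicate block; counts over the 14 starts and ratios per gene without single libraries were chosen after seeing the data. Replicate numbers do not pair the libraries in the labels.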

Additional observations from a re-analysis of the deposited data

How the results depend on the processing

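Idh1, the 1 gene with a gene-end peak in KO alone, lost that place with equal numbers of peaks, with −log10 q-values of at least 5 and with starts alone, where the count was 0; with a q-value of at most 0.05 the count of 1 was Asxl1, not Idh1. Genes with more called bases in every KO library numbered 4 in the main result (41.8% of all genes). They numbered 2 with equal numbers of peaks (Dnmt1 and Asxl1, beside 31.7% of all genes) and 1 with −log10 q-values of at least 5 (Dnmt1). With flanks of 50 kb they numbered 9, and as a share of called bases 0 (10.2% of all genes). Shares over all genes were not computed for that q-value limit, the 50 kb flanks, single libraries left out or the replicate block. The counts there are not read as results about the 9 genes. The ratio of called bases, 2.25, was 6.39 with a q-value of at most 0.05 and 0.972 as a share, and could not be formed at −log10 q-values of at least 5, where WT had no called base. The KO minus WT difference in genes with a gene-end peak, 1.67, was 2.67 with a q-value of at most 0.05 and 0.667 with −log10 q-values of at least 5. Starts marked in KO alone, 1 in the main result, numbered 4 and 0 at these thresholds, and 1 with equal numbers of peaks, which was Idh2. Starts marked in every library, 5 in the main result, numbered 0 at both thresholds and 3 with windows of 500 bp. The causes were not tested.

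Leaving out 1 library at a time gave 1.33 to 1.83 for the difference in genes with a gene-end peak, 1 to 1 for genes marked in KO alone, 4 to 6 for genes with more called bases in every KO library and 2.08 to 2.62 for the ratio, and mean differences of -116 to 184 bp at Tet1 and -38.5 to 214 bp at Idh2. It also gave 1 to 2 for starts marked in KO alone and 5 to 6 for starts marked in every library. Without WT replicate 2, Idh2 joined the starts marked in KO alone (2) and Tet3 and Idh2 separated. Tet2 separated without KO replicate 2 or WT replicate 1, Tet3 also without KO replicate 2, and Dnmt3b without KO replicate 3.

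The mean KO minus WT difference changed sign at Tet1 with equal numbers of peaks (-63.3 bp), without KO replicate 1 (-116 bp) and without WT replicate 3 (-91.7 bp), and at Idh2 without WT replicate 1 (-38.5 bp). As a share of called bases it was negative at Tet1 (-18.4 bp per called Mb), Tet2 (-8.88), Tet3 (-70.1), Idh1 (-13.0) and Idh2 (-24.4).

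The replicate block, comparing same-numbered libraries as pairs, gave 5 genes with more called bases in every KO library (Tet2 joined) and 1 gene marked in KO alone. Deviations of same-numbered libraries correlated at -0.0291, -0.00371 and 0.000709 over genes, and those of differently numbered libraries at -0.0218 to 0.0262. Such values cannot decide whether a number marks a shared origin, which the labels do not state. WT summits of 3 to 11 fragments limit what can be called absent at these genes.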
